A study of Homo sapiens with 20 samples.

Results

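Paralogous subunits of the BAF chromatin remodelling complex, among them those that exchange when a neural progenitor becomes a neuron, were followed through 18 days of human neuronal differentiation. The 10 genes were chosen by name from 5 subunit families, out of 38369 gene records of which 20237 were coding. ACTL6A, PHF10 and SS18 are known progenitor forms, and ACTL6B, DPF1, DPF3 and SS18L1 known neuronal forms. SMARCA4, SMARCA2 and SMARCD3, from the ATPase and SMARCD families, are not counted here as either form. Each of the 10 symbols matched 1 coding record, and all 10 had a mean value above the low-expression limit of 0.1 FPKM used for counting, which 14107 coding records passed. FPKM is a fragment number scaled to transcript length and to the mapped fragments of the library, so that levels of different genes can be compared per length.

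Polyadenylated RNA was sequenced from neural progenitor cells derived from H1, a single established human embryonic stem cell line, so 1 genetic background stands behind all values. Day 0 was the proliferating progenitor culture with FGF. Days 1, 2, 4, 5, 11 and 18 followed FGF withdrawal and the addition of BDNF, a neurotrophic factor, and the cells of days 5, 11 and 18 had been moved at day 4 to a new laminin-coated surface. The labels gave 20 samples, 3 per day except for 2 at day 5, but the tables held a single FPKM per gene for each day, which Cuffdiff2 estimated from that day's cultures jointly. There was therefore no replicate spread, no read depth and no test for any value below. Differences between days are given as folds or log2 changes. Counts of genes past 2-fold are set beside the share of all coding records where that share was computed.

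BAF complexes (the mammalian SWI/SNF family) use the ATPase SMARCA4 (BRG1) or its paralog SMARCA2 (BRM) to slide or evict nucleosomes. Several other subunit places in the complex can be filled by any of a few paralogs, and the choice is known to differ between cell types. In dividing neural progenitors the complex carries ACTL6A (BAF53A), PHF10 (BAF45A) or DPF2, and SS18, whereas postmitotic neurons carry ACTL6B (BAF53B), DPF1 (BAF45B) or DPF3 (BAF45C), and SS18L1 (CREST), a calcium-responsive coactivator needed for dendrite growth. The exchange of the actin-related subunit is the best known step: the repressor REST holds back miR-9-3p (miR-9*) and miR-124 in non-neuronal cells, and these microRNAs target ACTL6A once REST is lost.

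The sequences that this known circuit runs through are shown first, and 2 of the members hold letters that pair with the microRNA's seed. The mature microRNA, taken from the RefSeq table, has its seed (bases 2 to 8) in capitals. The matching letters AGCTTTA were searched on the transcript strand of the longest annotated 3' UTR of every member (GENCODE, GRCh37) and are in capitals in the matches, each printed 5' to 3' on the strand of its gene.
hsa-miR-9-3p: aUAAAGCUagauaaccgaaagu
ACTL6A, chr3:179305832-179305854, plus strand: caccttacgtttcatAGCTTTAg
ACTL6A, chr3:179305921-179305943, plus strand: acttaaattttttaaAGCTTTAa
PHF10, chr6:170108937-170108959, minus strand: tactggtctgctaagAGCTTTAa
ACTL6A held 2 matches in a 3' UTR of 400 bases, and PHF10 held 1 in 3190 bases. The other 8 members held 0, including DPF3 with the longest 3' UTR at 10266 bases. As background, the first 400 bases of the 3' UTR held at least 1 match in 3.26% of 15178 coding genes and 2 or more in 0.0857%. Over the length of the PHF10 3' UTR, the first 3190 bases held at least 1 match in 25.3% of 3579 coding genes, so a single match in PHF10 was common. A match describes letters and was not measured as binding.

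The promoters of ACTL6B, DPF3 and PHF10 are printed because these genes had the largest difference between day 0 and day 18, the clearest late difference among the neuronal PHD-finger forms, and the opposite direction. Each line gives the 250 bases before the start (RefSeq table, GRCh38.p14), with the CCAAT-box letters CCAAT, or ATTGG for the other strand, in capitals.
ACTL6B, chr7:100656449-100656698, minus strand: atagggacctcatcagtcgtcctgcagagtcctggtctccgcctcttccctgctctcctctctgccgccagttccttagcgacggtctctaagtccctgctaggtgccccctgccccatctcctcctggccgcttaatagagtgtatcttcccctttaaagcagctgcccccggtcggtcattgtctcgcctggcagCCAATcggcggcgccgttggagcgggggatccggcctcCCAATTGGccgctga
DPF3, chr14:72894102-72894351, minus strand: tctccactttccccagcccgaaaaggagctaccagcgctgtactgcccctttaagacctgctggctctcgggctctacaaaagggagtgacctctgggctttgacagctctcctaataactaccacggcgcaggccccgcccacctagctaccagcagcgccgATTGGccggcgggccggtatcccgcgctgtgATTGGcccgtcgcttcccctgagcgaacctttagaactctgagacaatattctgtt
PHF10, chr6:169724501-169724750, minus strand: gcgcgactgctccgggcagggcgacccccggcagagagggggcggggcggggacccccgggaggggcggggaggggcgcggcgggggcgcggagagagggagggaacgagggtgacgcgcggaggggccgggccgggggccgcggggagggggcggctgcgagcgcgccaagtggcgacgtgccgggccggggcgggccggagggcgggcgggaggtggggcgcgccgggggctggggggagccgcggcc
ACTL6B held 3 matches, of which a pair overlaps on opposite strands, DPF3 held 2, and PHF10 held 0. DPF3 has a second entry (chr14:72892650-72892899, not printed), which held 1 match and was 65.2% G and C. Of the 17 promoter entries found for 9 of the 10 members, 5 entries of 4 members (ACTL6B, DPF1, DPF3 and SS18) held the letters. That is 29.4% of the entries, near the 32.0% of all 35116 promoters in the table, so the motif did not set the members apart. ACTL6A had no entry. The PHF10 promoter was 86.4% G and C with 39 CpG dinucleotides, and SS18L1 reached 81.6% with 42. ACTL6B was at 62.4% with 16, nearer to the medians of all promoters of 58% and 11. Of 2 SMARCA4 entries, 1 was at 82.4% with 44 and the other at 55.6% with 4. The left and right letters of the RE1 element to which REST binds, TTCAGCACC and GGACAGC, were searched on both strands. The first was in 0 of the 17 entries, against 0.288% of all promoters, and the second in 1 entry, of SMARCD3, against 4.76%. Elements outside these windows were not searched.

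The actin-related subunits exchanged rank over the time course, and ACTL6B stood furthest from day 0 of all members. ACTL6B (hg19 chr7:100240728-100254084, minus strand), the neuron-specific form, was at 0.908 FPKM on day 0, 1.27 on day 1, 1.96 on day 2, 4.17 on day 4, 7.85 on day 5, 18.1 on day 11 and 25.6 on day 18. It was higher at each of the 6 steps and 28.2-fold higher on day 18 than on day 0. ACTL6A (chr3:179280708-179306188, plus strand), the form of dividing cells, was at 61.6, 34.6, 33.0, 40.4, 38.2, 33.9 and 20.1 FPKM on the same days. It was lower after the first day, the step that held the change of medium, and again after day 11, and it lay between 33.0 and 40.4 FPKM in the days between.

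Because total FPKM was lower late in the series, 251156 on day 18 against 413978 on day 0, changes between days are given on the log2(FPKM + 0.1) scale relative to the median change of 14443 records with a mean of at least 1 FPKM, which was -0.56 from day 0 to day 18. On that scale the day 18 change was 5.23 for ACTL6B and -1.05 for ACTL6A, and without the correction 4.67 and -1.61. ACTL6B ranked 33rd from the top among 14107 coding records. ACTL6A ranked 1669th from the bottom, so a difference of its size was common among all genes.

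A ratio of paralogs within a day does not depend on the scaling between days. ACTL6B stood at 0.0147 of the ACTL6A level on day 0, 0.0367 on day 1, 0.0594 on day 2, 0.103 on day 4, 0.206 on day 5, 0.535 on day 11 and 1.27 on day 18. The share of ACTL6B in the summed FPKM of both genes was 1.45% on day 0, 17.0% on day 5, 34.8% on day 11 and 56.0% on day 18, and the order of the pair was reversed on day 18 alone of the days measured. Of the change of 6.28 in the log2 ratio of (FPKM + 0.1), the part in ACTL6B was larger than the part in ACTL6A under either scaling. The ratio was 2.49-fold that of day 0 after 1 day and 6.99-fold on day 4, before the cells were replated, and 86.5-fold on day 18, folds of FPKM with no pseudocount added.

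**Figure D1:**
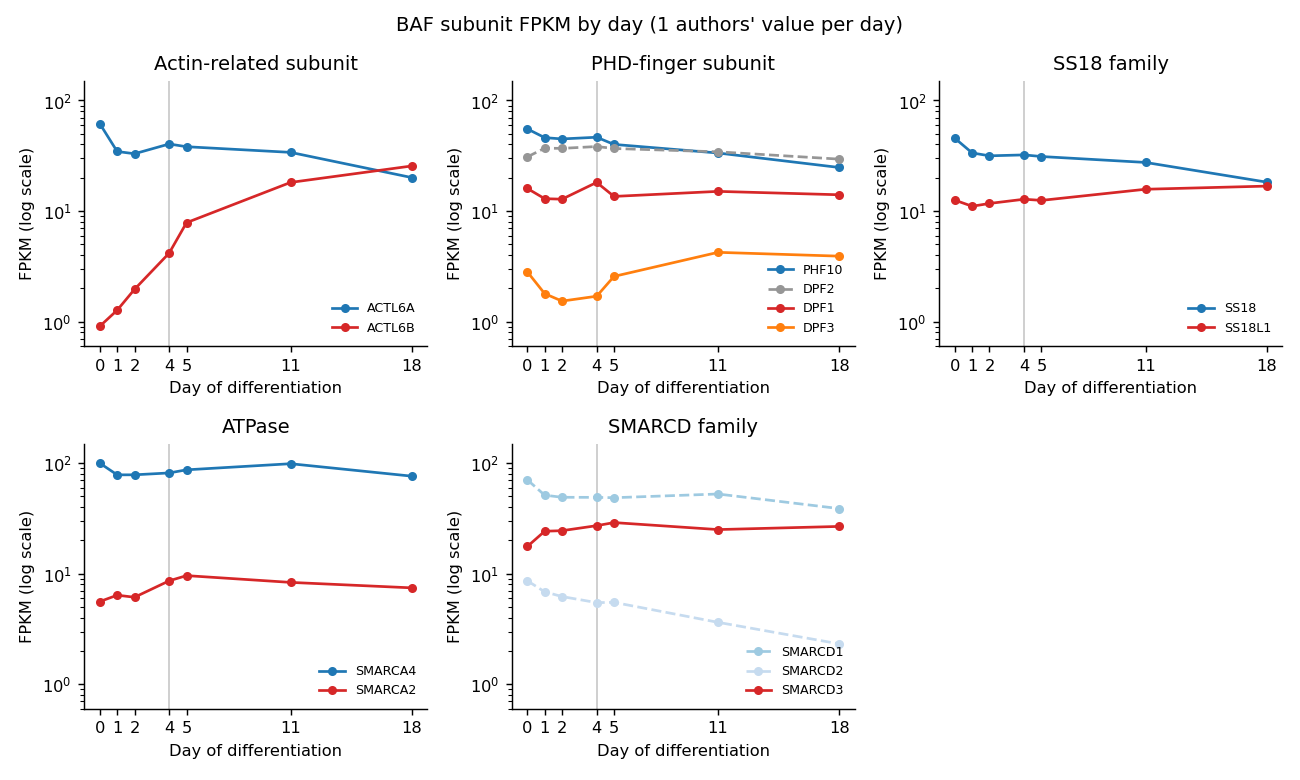
FPKM of each BAF paralog (vertical axis, log scale) against day of differentiation (horizontal axis), 1 panel per subunit family and 1 authors' value per day with no error bar available. Solid lines are members, dashed lines the paralogs DPF2, SMARCD1 and SMARCD2, and the vertical line marks replating at day 4. ACTL6B went from 0.908 FPKM on day 0 to 25.6 on day 18, above ACTL6A at 20.1.

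The PHD-finger subunits, which read histone tails, shifted less. PHF10 (chr6:170104004-170124106, minus strand), the progenitor form, was at 55.3, 46.1, 44.9, 46.5, 40.1, 33.5 and 24.8 FPKM from day 0 to day 18, a relative log2 change of -0.60 and a deposited one of -1.16. DPF1 (chr19:38701650-38720317, minus strand), a neuronal form, was at 16.0, 12.9, 12.8, 18.2, 13.6, 15.1 and 14.0 FPKM. DPF1 thus had no steady trend, and its direction rested on the scaling, at 0.37 relative to the median and -0.19 as deposited.

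DPF3 (chr14:73086004-73360809, minus strand), also neuronal and known from heart and muscle as well, was at 2.82, 1.79, 1.53, 1.70, 2.56, 4.23 and 3.91 FPKM. It was lower than on day 0 on days 1, 2, 4 and 5 and higher on days 11 and 18, with a relative change of 1.02 and a deposited one of 0.46. Against PHF10, DPF1 moved from 0.289 to 0.567 and DPF3 from 0.0509 on day 0 through 0.0341 on day 2 to 0.158 on day 18. DPF2 (BAF45D), the broadly expressed paralog that progenitor complexes can also carry, was at 30.9 FPKM on day 0 and 29.5 on day 18. Its relative change was 0.49 and its deposited one -0.07. It is outside the neuronal set, and it took 29.4% of the summed FPKM of the 4 genes on day 0 and 40.8% on day 18. In the same sum PHF10 went from 52.7% to 34.3%, DPF1 from 15.2% to 19.4% and DPF3 from 2.68% to 5.41%. The largest share on day 18 therefore belonged to DPF2, and the neuronal forms DPF1 and DPF3 stayed below PHF10 on every day.

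In the SS18 family, whose members link the complex to coactivators, the 2 paralogs met without crossing. SS18 (chr18:23596219-23671164, minus strand) was at 45.6, 33.6, 31.6, 32.2, 31.1, 27.5 and 18.2 FPKM over the 7 days, a relative change of -0.76 and a deposited one of -1.32. SS18L1 (chr20:60718822-60757568, plus strand) was at 12.6, 11.0, 11.7, 12.8, 12.5, 15.7 and 16.8 FPKM, with changes of 0.98 and 0.42. SS18L1 stayed near its day 0 level through day 5 and was higher on days 11 and 18. The ratio of SS18L1 to SS18 was 0.275 on day 0, 0.401 on day 5, 0.572 on day 11 and 0.921 on day 18, higher at each of the 6 steps, and the share of SS18L1 went from 21.6% to 48.0%. An antisense noncoding record, linc-SS18L1-AS, overlapped 22.4% of the exonic bases of SS18L1, at 0.493 to 0.778 FPKM. Other-strand records also overlapped PHF10 (9.83% of its exonic bases, with the coding gene C6orf120), SS18 (14.3%), SMARCA4 (9.14%), SMARCA2 (7.23%) and SMARCD3 (12.6%), and none overlapped ACTL6A, ACTL6B, DPF1 or DPF3. Without counting by strand, reads of a gene and of its antisense partner cannot be told apart.

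The ATPase pair kept its order throughout. SMARCA4 (chr19:11071598-11172959, plus strand) was at 100.0, 78.4, 78.5, 81.6, 87.1, 98.9 and 76.3 FPKM, the highest level of the 10 members on every day. Its day 18 change was 0.17 relative to the median and -0.39 as deposited, so its direction, too, rested on the scaling. SMARCA2 (chr9:2015342-2193621, plus strand) was at 5.60, 6.40, 6.13, 8.63, 9.62, 8.35 and 7.45 FPKM, with a relative change of 0.96 and a deposited one of 0.41. The SMARCA2 share of the pair was 5.31% on day 0, highest at 9.94% on day 5 and 8.89% on day 18. SMARCA4 remained the main ATPase transcript, at 91.1% of the pair on day 18. A record called linc-SMARCA4-AS, which shared 2.80% of the SMARCA4 exonic bases on the other strand, had 43.9 FPKM on day 0 and 30.0 on day 18.

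SMARCD3 (BAF60C; chr7:150936060-150974231, minus strand), best known as the heart and muscle form of its family and found in neuronal complexes too, was at 17.6, 24.2, 24.5, 27.2, 29.0, 25.1 and 26.8 FPKM. It was higher than on day 0 at every later day, the first included. Its changes on day 18 were 1.16 and 0.60. SMARCD1 (BAF60A), the main paralog and no member, was at 70.7 FPKM on day 0, 51.4 on day 1 and 38.8 on day 18. The ratio of SMARCD3 to SMARCD1 was 0.249 on day 0, 0.472 on day 1, 0.596 on day 5, 0.477 on day 11 and 0.690 on day 18. The share of SMARCD3 in the family went from 18.2% to 39.4%, that of SMARCD1 from 72.9% to 57.2% and that of SMARCD2 from 8.91% to 3.41%.

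**Figure D2:**
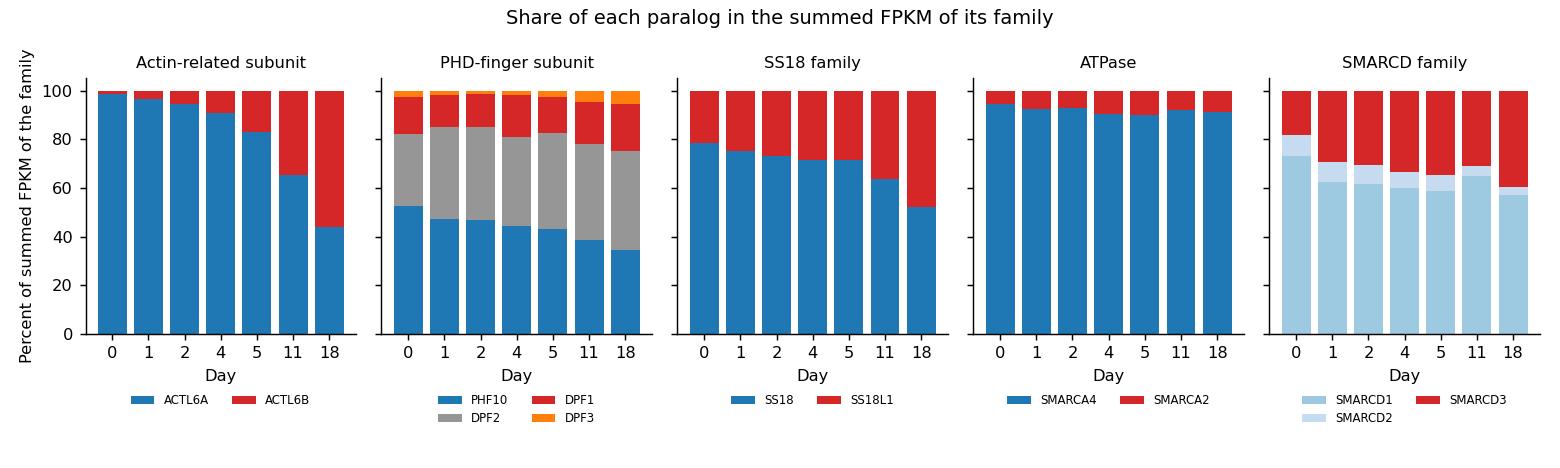
Percent of the summed FPKM of each subunit family (vertical axis) taken by each paralog, as stacked bars for the 7 days (horizontal axis), 1 authors' value per day. Neuronal forms and the paired members SMARCA2 and SMARCD3 are in red or orange. The ACTL6B share went from 1.45% to 56.0% and the SS18L1 share from 21.6% to 48.0%, while SMARCA2 stayed at or under 9.94%.

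All 6 paralog ratios were higher on day 18 than on day 0, with changes in the log2 ratio of (FPKM + 0.1) of 6.28 for ACTL6B over ACTL6A, 1.73 for SS18L1 over SS18, 1.61 for DPF3 over PHF10, 1.46 for SMARCD3 over SMARCD1, 0.97 for DPF1 over PHF10 and 0.79 for SMARCA2 over SMARCA4. The DPF1 and DPF3 ratios share PHF10. The timing differed between pairs. The first day held 0.92 of the 1.46 for SMARCD3 over SMARCD1 and 0.54 for SMARCA2 over SMARCA4, whereas DPF3 over PHF10 was below its day 0 value on days 1, 2 and 4 and gained 0.78 between day 4 and day 5. In that step the cells were also replated, and the time in culture and the new surface cannot be told apart. SS18L1 over SS18 gained 0.51 between days 5 and 11, and 0.68 between days 11 and 18.

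**Figure D3:**
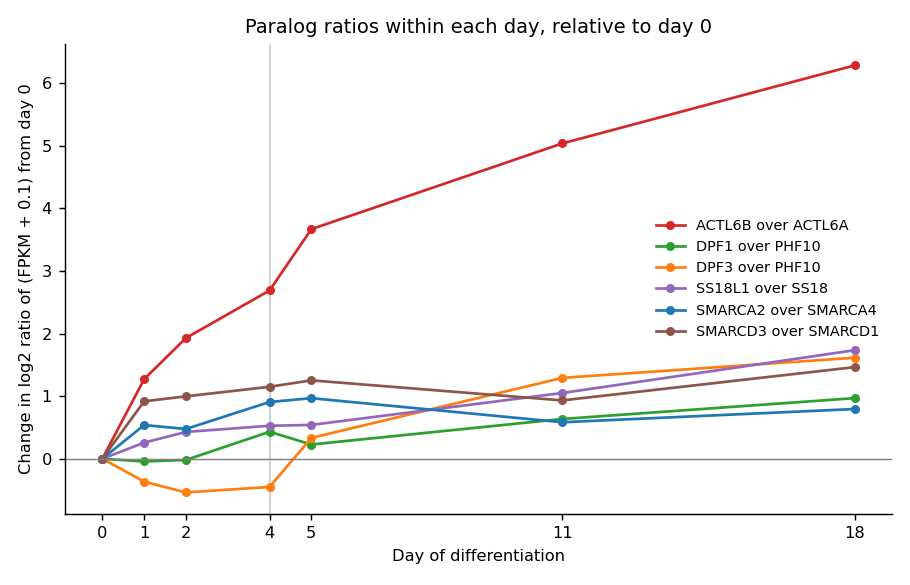
Change in the log2 ratio of (FPKM + 0.1) from day 0 (vertical axis) for 6 paralog pairs against day of differentiation (horizontal axis), 1 authors' value per day. The vertical line marks replating at day 4. The ACTL6B over ACTL6A line reached 6.28 on day 18, and the other 5 ended between 0.79 and 1.73.

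Counted at 2-fold and relative to the median, 3 of the 10 members were higher on day 18 than on day 0 (ACTL6B, DPF3 and SMARCD3), beside 18.5% of all 14107 coding records, and 1 was lower (ACTL6A), beside 12.7%. DPF3 passed narrowly, at 1.02, and the count of higher members was 2 with a pseudocount of 1 FPKM (DPF3 at 0.84) and 2 with centring on coding records with a mean of at least 0.1 FPKM (0.98). With values as deposited, 1 member was higher (ACTL6B), beside 10.6%, and 3 were lower (ACTL6A, PHF10 and SS18), beside 28.2%. These counts are near the background for a set of this size, and ACTL6B was the member furthest from day 0. Of the 14107 coding records, 18.0% had a lower day 18 change than SS18 and 22.5% a lower one than PHF10. The same share was 56.2% for SMARCA4, 64.3% for DPF1, 80.8% for SMARCA2, 81.0% for SS18L1, 81.7% for DPF3 and 84.2% for SMARCD3. From day 0 to day 1, 0 members were 2-fold higher, beside 5.81%, and 0 were 2-fold lower, beside 2.76%. From day 5 to day 11, both after replating, 1 member was higher (ACTL6B), beside 3.74%, and 0 were lower, beside 3.31%. In direction alone, the 3 progenitor forms among the members, ACTL6A, PHF10 and SS18, had relative changes from -1.05 to -0.60. The 4 neuronal forms ACTL6B, DPF1, DPF3 and SS18L1 had changes from 0.37 to 5.23, beside a median of 0.04 over all coding records. The medians of these 3 and 4 genes were -0.76 and 1.00. DPF2, which progenitor complexes can carry in place of PHF10 and which is no member, went the other way from these 3, at 0.49. As deposited, the DPF2 change was -0.07.

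The order of the members by level changed accordingly. On day 0 it ran SMARCA4, ACTL6A, PHF10, SS18, SMARCD3, DPF1, SS18L1, SMARCA2, DPF3 and ACTL6B. On day 18 it ran SMARCA4, SMARCD3, ACTL6B, PHF10, ACTL6A, SS18, SS18L1, DPF1, SMARCA2 and DPF3. ACTL6B moved from last place to the third. On day 18 the levels from SMARCD3 down to DPF1 lay between 26.8 and 14.0 FPKM, with neighbours 1.03 to 1.23-fold apart, and without replicate values it cannot be said which of these neighbours differ.

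The other subunits of the BAF family, which the exchange is not known to involve or involves only through paralogs, had relative changes from -1.29 to 2.32. Of 21 genes 19 were counted, 2 were 2-fold higher relative to the median on day 18 and 1 was 2-fold lower, beside the same 18.5% and 12.7%, and their median change was 0.03. As deposited, 1 was higher and 4 were lower, beside 10.6% and 28.2% of all coding records. BCL11A (CTIP1), a zinc-finger transcription factor counted as a BAF subunit in neural cells, was at 2.28, 2.31, 2.47, 3.39, 3.45, 6.97 and 7.96 FPKM, a relative change of 2.32. BICRAL, a subunit of the noncanonical GBAF complex, went from 2.39 to 3.88 FPKM (1.24), and SMARCD2, the third member of the SMARCD family, from 8.64 to 2.32 (-1.29).

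The core scaffold paralogs SMARCC1 (BAF155) and SMARCC2 (BAF170), which are no members, also drew level. SMARCC1 went from 79.5 FPKM on day 0 to 34.7 on day 18 and SMARCC2 from 27.6 to 34.4, so that the SMARCC2 share of the pair was 25.8% at the start and 49.8% at the end. ARID1A, a defining subunit of canonical BAF, had a relative change of 0.08, and SMARCB1, a core subunit, of -0.01. ACTB, the actin of the complex, was listed at 0 on all days although every cell uses it, so its record can be a failed estimate, and BCL11B was under the mean limit of 0.1 FPKM.

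Of 18 ATPases of other remodellers (ISWI, CHD, INO80 and related families), 1 was 2-fold higher and 1 was 2-fold lower relative to the median. The shares of all coding records were 18.5% and 12.7%, and the median change of the list was 0.10. CHD5, a neuronal CHD family member, went from 0.0436 to 1.92 FPKM (4.37), and HELLS, a remodeller of proliferating cells, from 14.2 to 3.42 (-1.47). At a pseudocount of 0.1 FPKM the change of ACTL6B, 5.23, was above that of every gene counted in both lists, but this order rested on the pseudocount: CHD5 was 43.9-fold higher on the FPKM scale against 28.2-fold for ACTL6B, and at a pseudocount of 0.01 FPKM the changes were 5.74 for CHD5 and 5.37 for ACTL6B.

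**Figure D4:**
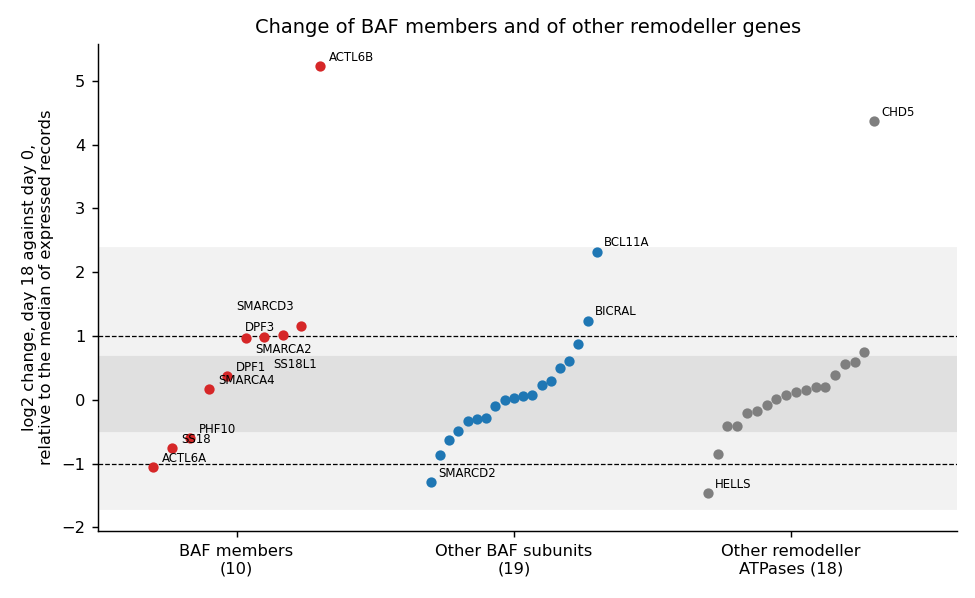
Change in log2(FPKM + 0.1) from day 0 to day 18 relative to the median of expressed records (vertical axis) for the 10 members, 19 other BAF subunits and 18 other remodeller ATPases (horizontal axis, 1 dot per gene, ordered by value). Dashed lines mark 2-fold; the darker band spans the 25th to 75th percentiles of all coding records, from -0.53 to 0.70, and the lighter bands reach the 5th and 95th percentiles, -1.72 and 2.38. ACTL6B at 5.23 and CHD5 at 4.37 lie above the other dots, and at a pseudocount of 0.01 FPKM the order of these 2 was reversed.

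REST, the repressor of neuronal genes linked to the exchange, was at 7.68, 6.91, 7.07, 6.48, 6.06, 5.37 and 3.11 FPKM on the 7 days. Its change on day 18 was -0.72 relative to the median and -1.28 as deposited, so REST was lower at the end under either scaling, and past 2-fold as deposited only. Of REST and 5 corepressor genes, 0 passed 2-fold in either direction relative to the median, beside 18.5% higher and 12.7% lower of all coding records. The mature microRNAs were not measured by this polyadenylated RNA library.

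Among 12404 coding records reaching 1 FPKM on at least 1 day, the 5 whose log2(FPKM + 0.1) followed ACTL6B most closely over the 7 days were STMN2, SLC17A6, STMN4, SYT4 and SRRM4, with Pearson's r from 0.997 for SRRM4 to 1.000 for STMN2. STMN2, a microtubule regulator of growing neurites, was at 32.3 FPKM on day 0 and 727 on day 18, and SLC17A6, a vesicular glutamate transporter, at 1.32 and 25.4. SRRM4, a neuronal splicing factor, was at 0.424 and 10.3. For ACTL6A the 5 were LAPTM4B, CTNNB1, DBR1, GLO1 and LSG1, with r from 0.997 to 0.999. Such values are a description over 7 days that share their cultures and scaling, and likeness was common, with 411 records at r of 0.95 or more for ACTL6B and 669 for ACTL6A.

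The mixture of cells also differed between days, and in bulk RNA fewer cells of a type and less RNA per cell cannot be told apart. All 8 markers of cycling cells were 2-fold lower on day 18 relative to the median, beside 12.7% of all coding records. Their summed level was 771 FPKM on day 0, 333 on day 5 and 152 on day 18. The list's median change was -0.77 on day 1 and -1.82 on day 18, beside -0.74 and -1.05 for ACTL6A. Of 11 neuron markers, 8 were 2-fold higher, beside 18.5% of all coding records. The summed level of the 11 lay between 452 FPKM on day 1 and 1504 on day 18, against 694 on day 0. The neuron list ranged on day 18 from -0.61 for NEFL, a neurofilament subunit, to 5.05 for STMN2, with a median of 1.99, and the changes of STMN2, ELAVL4 (4.89), DCX (4.54) and SYP (4.23) were of a size near that of ACTL6B (5.23). Neural progenitor markers summed to 3694 FPKM on day 0, 4667 on day 2 and 1800 on day 18. Most of that sum was VIM, at 2948 FPKM on day 0 and 1493 on day 18. The list's median relative change on day 18 was -0.38. Of the 7, 1 was higher (PAX6) and 1 lower (PROM1), beside 18.5% and 12.7% of all coding records.

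Of 8 mesenchymal markers, 7 were counted and 5 were 2-fold lower, beside 12.7% of all coding records. The sum was 722 FPKM on day 0 and 68.4 on day 18, and COL1A1 was listed at 0. GFAP, the defining marker of astrocytes, was at 0.186 FPKM on day 0 and 0.0394 on day 18. Pluripotency markers summed to 41.9 FPKM on day 0 and 4.23 on day 18, all but a trace of it LIN28A and DPPA4, while ZFP42 was listed at 0 on both days and POU5F1 was at 0.0886 and 0.0358. The part of these shifts in the values of ACTL6A, PHF10, SS18 and ACTL6B was not tested.

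**Figure D5:**
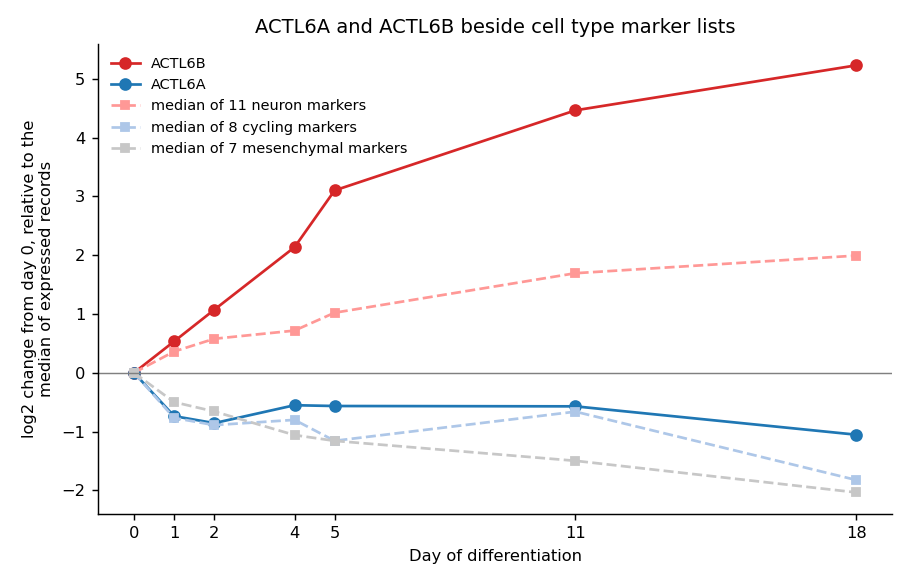
Change in log2(FPKM + 0.1) from day 0, relative to the median of expressed records (vertical axis), against day of differentiation (horizontal axis), for ACTL6B, ACTL6A and the median gene of 3 marker lists (squares, dashed), 1 authors' value per day. On day 18 ACTL6B was at 5.23 and the neuron markers at 1.99, and ACTL6A was at -1.05, the cycling markers at -1.82 and the mesenchymal markers at -2.04.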

How the data were processed

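RNA from 20 cultures was prepared with a polyadenylated RNA kit and sequenced as paired-end reads. Reads were aligned to hg19 by the authors with TopHat2, assembled with Cufflinks and quantified with Cuffdiff2 at default options, for which the library type is unstranded. Versions are not given in the sources used here. The deposited FPKM values, scaled by the authors to transcript length and mapped fragments, hold 1 value per record and day over the cultures of that day, and 0 columns hold single samples, so depth is unknown. A second deposited table was used for gene names, strand, coordinates and exon widths. Its fold changes, test statistics, p-values and q-values are the authors' own comparisons of adjacent days and were not used.

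Changes were computed in Python 3.11.15 with pandas 2.3.3 and numpy 2.4.6 as differences of log2(FPKM + 0.1), as deposited and relative to the median change of records with a mean of at least 1 FPKM. Coding records with a mean of at least 0.1 FPKM were counted, and a gene was called past 2-fold. The calculation was tested on simulated data. Samples were grouped by the day in their titles. The members and lists were chosen with earlier results of these data known. Genes of the other lists were named if past 2-fold or if paralogous to a member. SMARCC1 and SMARCC2 were named as paralogs of each other, and REST as the repressor linked to the exchange. ARID1A and SMARCB1 were chosen after their values were seen. Alternatives were other pseudocounts, centrings, filters, first and last days, folds and summed records.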

Additional observations from a re-analysis of the deposited data

How the results depend on the processing

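Summing the coding records of a symbol could not change any value or count here, because every gene concerned had 1 coding record. Every log2 ratio change of a paralog pair stayed above 0 under all 6 settings, the main one and the summed records included. The values ran from 0.26 for SMARCA2 over SMARCA4 to 6.42 for ACTL6B over ACTL6A. For ACTL6B over ACTL6A the change was 5.37 with a pseudocount of 1 FPKM, 5.04 with day 11 as the last day and 5.01 with day 1 as the first. It was 1.05 for SS18L1 over SS18 with day 11 as the last day and 0.55 for SMARCD3 over SMARCD1 with day 1 as the first. With day 11 as the last day, 1 member, 1 other BAF subunit and 1 other ATPase fewer were lower than in the main count, leaving 0 each, and 1 member and 1 other BAF subunit were higher. With day 1 as the first day, 0 members were lower and 1 other BAF subunit was higher. As deposited, 1 member was higher and 3 were lower, 1 other BAF subunit was higher and 4 were lower, and 2 other ATPases were lower. The shares of all coding records as deposited were 10.6% higher and 28.2% lower. At 1.5-fold, 5 members were higher and 3 lower, 4 other BAF subunits higher and 3 lower, and 3 other ATPases higher and 2 lower. No share of all coding records was computed at 1.5-fold, with other filters or with these first and last days, so these counts have no background. The 25th and 75th percentiles of the main change over all coding records were -0.53 and 0.70, beside a 1.5-fold limit of 0.58. With a mean of at least 1 FPKM, 0 other ATPases were higher. The change of ACTL6A was -0.29 from day 1 to day 18. Across 8 settings, the main one included, DPF1 and SMARCA4 were above 0 in 7 and below 0 as deposited. Of the 70 changes of single members, 67 differed from the main value by less than 1.5-fold (0.58 on the log2 scale). The 67 include the summed records, which could not differ. The limit is wider than the centring shift of -0.56 in size, so the changed signs of DPF1 and SMARCA4 are among the 67. No paired analysis was possible because the files hold 1 value per day, and for the same reason no replicate could be left out. No replicate spread or depth limits can be given.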
